A study of Mus musculus with 6 samples.

Results

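The mitochondrially encoded genes are the 37 of 47643 rows in the table whose symbol starts with mt-. They comprise 13 protein genes, 2 ribosomal RNA genes and 22 transfer RNA genes, and all 37 lie on chromosome M in the GENCODE M21 annotation of build mm10. They were measured by bulk RNA sequencing of liver tumors from mice of the FVB/N strain with the LAP-tTA and tetO-MYC transgenes. In that system the LAP promoter drives the tetracycline transactivator in hepatocytes and doxycycline holds the MYC transgene off. All the mice drank doxycycline at 100 mg/L up to 4 weeks of age and then had MYC on for 8 weeks. GSK3326595, which inhibits PRMT5, an enzyme that methylates arginines of proteins, was then given at 50 mg/kg/day over 2 weeks to the treated group, and vehicle to the control group. There were 3 GSK3326595 and 3 vehicle libraries. The labels do not say that each came from its own animal, and the spread behind each p-value is that between these libraries, which may be technical.

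Mitochondrial DNA is a small circular genome present in many copies per cell. Both of its strands are transcribed by the mitochondrial RNA polymerase POLRMT into long precursors that are cut, largely at the tRNAs, into rRNAs, tRNAs and mRNAs. Its mRNAs encode only core subunits of respiratory complexes I, III, IV and V, while the other subunits, and every protein that copies, transcribes and translates this genome, come from the nucleus. Hepatocytes are rich in mitochondria.

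The libraries held between 25814339 and 33621083 expected counts. The 9 hepatocyte markers found, of 10 listed, summed to 10344 to 33271 CPM (counts scaled to library size, with TMM normalization factors) in GSK3326595 libraries and to 19942 to 47357 CPM in vehicle libraries. The lowest sum of each group was in its replicate 3. The 11 T cell markers summed to 14.6 to 36.1 CPM in GSK3326595 libraries against 5.41 to 8.44 CPM in vehicle libraries, and the 8 stellate and fibroblast markers to 590 to 791 CPM in GSK3326595 against 135 to 531 CPM in vehicle libraries. The 6 B cell markers summed to 3.75 to 14.9 CPM in GSK3326595 against 2.35 to 3.73 CPM in vehicle libraries. These 3 sums lay apart by group, where 6.72% of all genes tested lay apart with GSK3326595 higher. The B cell sums did so only narrowly, at 3.752 CPM in GSK3326595 replicate 3 against 3.730 CPM in vehicle replicate 3. Sums of the macrophage (618 to 1886 CPM in GSK3326595, 560 to 872 CPM in vehicle), endothelial, biliary, erythroid and striated muscle lists overlapped. No defining marker of the lists was at 0 in all libraries. The part of cell makeup in the results was not tested, and in bulk RNA fewer cells of a type and less RNA per cell cannot be told apart.

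Reads of 7 protein genes were shared with near-identical pseudogenes in 1 block of chromosome 1, and this decides how their rows can be read. The first 60 bases of mt-Co2 (chrM:7013-7072, plus strand), the gene of cytochrome c oxidase subunit 2, and of its copy Gm28661 (chr1:24615506-24615565, minus strand) are given as an example of a pair whose 681 aligned bases were identical. The first 33 bases of mt-Nd3 (chrM:9459-9491, plus strand), a complex I subunit gene, and of its copy Gm28438 (chr1:24613087-24613119, minus strand) show 1 of the 2 mismatches found over the 7 pairs. The capital marks the substitution T3C, counted from 1 at the start of the gene. The sequences are from the GENCODE M21 transcripts (mm10).
mt-Co2: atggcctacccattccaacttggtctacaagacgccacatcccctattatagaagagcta
Gm28661: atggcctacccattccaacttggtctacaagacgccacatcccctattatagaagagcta
mt-Nd3: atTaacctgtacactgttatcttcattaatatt
Gm28438: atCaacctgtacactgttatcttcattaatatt

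All 7 copies were annotated as unprocessed pseudogenes on the minus strand of chromosome 1, from Gm28439 (24611535 to 24612410) to Gm29216 (24615706 to 24616197). The aligned length was 681 bases for mt-Co2 with Gm28661, 678 for mt-Atp6 with Gm10925, 783 for mt-Co3 with Gm28437, 294 for mt-Nd4l with Gm10222 and 876 for mt-Nd4 with Gm28439, each at 100% identity. It was 345 bases for mt-Nd3 with Gm28438, at 99.7% identity, and 483 bases for mt-Co1 with Gm29216, at 99.8% and with the substitution A1066T. Read along the minus strand of chromosome 1, the copies had the order of the genes on mitochondrial DNA. In the reference, a read from inside any of these alignments thus matched both places or differed by 1 base.

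The deposited counts were divided between the members of each pair in very unequal ways. Of the summed counts of gene and copy, the mitochondrial row held 88.5% to 91.4% for mt-Co1 and 99.8% to 99.9% for mt-Nd4 over the 6 libraries. It held only 9.33% to 11.3% for mt-Co2, 12.7% to 19.8% for mt-Atp6 and 20.0% to 29.99% for mt-Co3. The division moved most between libraries for mt-Nd3, at 27.2% to 43.5%, and for mt-Nd4l, at 5.06% to 26.8%. The sums of gene and copy were whole, within 0.015 counts, in 6 of 6 libraries for mt-Atp6, mt-Co3, mt-Nd3, mt-Nd4l and mt-Nd4, while the rows alone were whole in 1 library for mt-Nd3 and in 0 for the other genes. For mt-Co1 and mt-Co2 this needed their further copies on other chromosomes as well. Whether a read came from the mitochondrion or from chromosome 1 cannot be told apart here. The levels of these 7 genes are therefore given with the copy added, and their log2 differences both with the copy and for the deposited row.

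**Figure D1:**
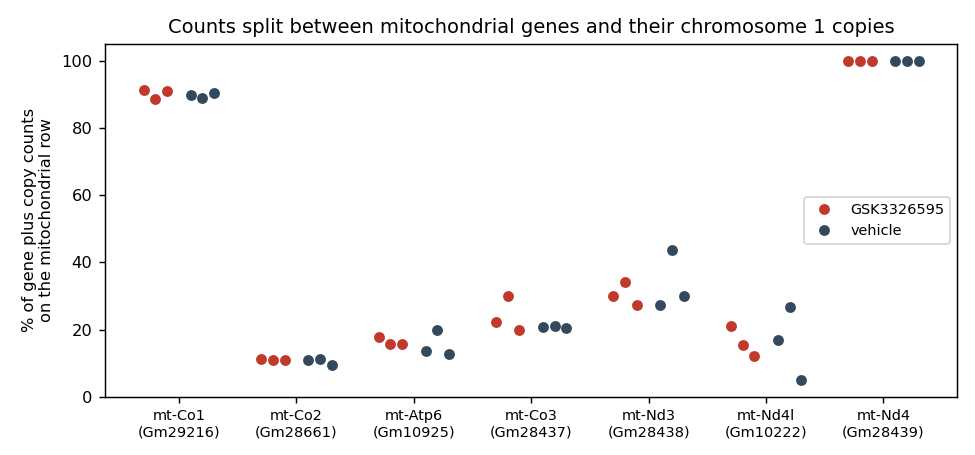
Percent of the summed counts of each gene and its chromosome 1 copy (y axis) that the mitochondrial row held, for the 7 protein genes with a copy (x axis), with 3 GSK3326595 points left of 3 vehicle points for each gene. The row of mt-Nd4 held over 99% and that of mt-Co2 at most 11.3%, and the points of mt-Nd4l and mt-Nd3 were the most spread.

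The 7 copies together took 1.53%, 1.64% and 1.59% of the counts in GSK3326595 replicates 1 to 3, against 1.92%, 1.88% and 1.65% in vehicle replicates 1 to 3. All 3 GSK3326595 values lay below all 3 vehicle values, but the nearest were 1.636% (GSK3326595 replicate 2) and 1.653% (vehicle replicate 3). As a share of protein gene and copy counts together, they were 35.2% to 36.9% in GSK3326595 libraries and 38.3% to 38.8% in vehicle libraries, again without overlap. Neither difference was tested, and 7.68% of all genes tested lay apart in CPM with GSK3326595 lower. The part that the division of shared reads had in these values was not tested. Adding the copies lowered the median SD of log2 CPM within groups over the 13 protein genes to 0.20, against 0.29 for the deposited rows and 0.39 for all genes tested. For mt-Nd4l the SD was 0.18 with its copy and 0.99 without it.

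Read by length, the mRNAs of complex IV were the most abundant of the protein genes and those of complex I mostly the least. Mean levels over the 6 libraries, with copies added, were 10717 CPM per kilobase for mt-Co1, 10384 for mt-Co3 and 10254 for mt-Co2, the 3 catalytic core subunits of cytochrome c oxidase. The ranges of these 3 genes over libraries overlapped, from 8220 to 12850 CPM per kilobase, so their order is not resolved. Next came mt-Atp6, a membrane subunit of ATP synthase, at 3864 CPM per kilobase, and then mt-Cytb at 2953, mt-Nd1 at 2951 and mt-Atp8 at 2902, which did not differ beyond their spread. The range of mt-Atp6 over libraries, 3337 to 4308, overlapped those of mt-Cytb (2589 to 3523) and mt-Nd1 (2566 to 3548). The complex I subunit genes mt-Nd3, mt-Nd4, mt-Nd2 and mt-Nd5 followed at 2253, 985, 868 and 651 CPM per kilobase. The range of mt-Nd3, 1977 to 2585, overlapped that of mt-Atp8 (2207 to 3309). Ranges of mt-Nd4 (782 to 1178), mt-Nd2 (732 to 1053) and mt-Nd5 (469 to 827) overlapped, so their order is not resolved. The lowest were mt-Nd4l at 443 and mt-Nd6 at 367 CPM per kilobase, with overlapping ranges, and that of mt-Nd4l (379 to 515) also overlapped that of mt-Nd5.

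On the deposited rows alone the order was different, since mt-Co3 had 2325, mt-Co2 1109, mt-Nd3 727, mt-Atp6 614 and mt-Nd4l 72.4 CPM per kilobase. The genes mt-Atp8 and mt-Atp6, whose subunits both belong to ATP synthase, share 43 bases on the plus strand (chrM:7927-7969), shown because a read confined to them cannot be assigned to a single gene. The pair mt-Nd4l and mt-Nd4 shares 7 bases in the same way.
mt-Atp8 and mt-Atp6 overlap: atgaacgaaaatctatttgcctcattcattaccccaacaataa

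**Figure D2:**
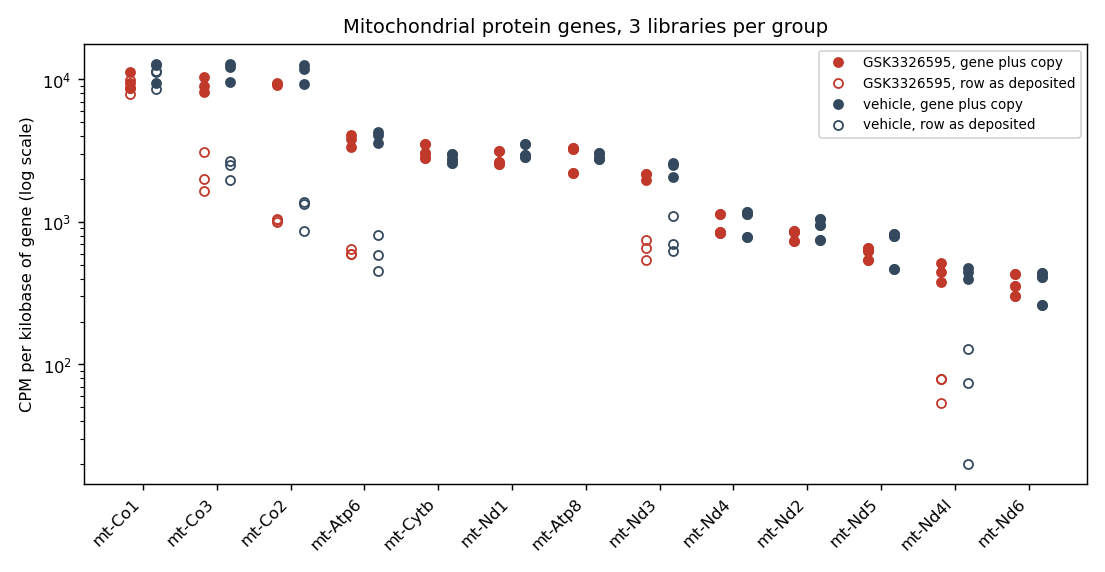
CPM per kilobase of gene on a log scale (y axis) for the 13 protein genes in descending order of the level with copies added (x axis), 3 GSK3326595 points left of 3 vehicle points. Filled points include the chromosome 1 copy and open points are the deposited row, and the open points fall far below the filled ones for mt-Co3, mt-Co2, mt-Atp6, mt-Nd3 and mt-Nd4l.

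No difference in the mitochondrial share of the RNA was detected between GSK3326595 and vehicle tumors. All 37 genes together took 6.04%, 6.60% and 5.77% of the expected counts in GSK3326595 replicates 1 to 3, against 6.51%, 6.63% and 5.55% in vehicle replicates 1 to 3. The groups overlapped, with means of 6.14% ± 0.426 in GSK3326595 and 6.23% ± 0.590 in vehicle (SD, n = 3 each) and a log2 difference of -0.02 ± 0.10 (SE; exact permutation test, two-sided, p = 0.9). In this design of 3 against 3 libraries the smallest p such a test allows is 0.1. With copies added the means were 7.72% ± 0.461 in GSK3326595 and 8.05% ± 0.729 in vehicle (-0.06 ± 0.09, exact permutation p = 0.6).

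The protein genes took 2.62%, 3.01% and 2.73% of the GSK3326595 libraries against 3.09%, 3.01% and 2.60% of the vehicle libraries, and the groups overlapped. The log2 difference was -0.06 ± 0.10 (SE; exact permutation p = 0.8, n = 3 each). With copies added the shares were 4.15%, 4.65% and 4.31% in GSK3326595 against 5.01%, 4.89% and 4.26% in vehicle, which still overlapped (-0.11 ± 0.09, exact permutation p = 0.3). The 95% Wilson interval of any of these shares was at most 0.0101 points to either side and covers counting error only, so the spread between libraries was far wider than counting error. The 6 protein genes with no annotated copy on chromosome 1 were mt-Nd1, mt-Nd2, mt-Atp8, mt-Nd5, mt-Nd6 and mt-Cytb. Over these the log2 difference of the summed share was 0.06, of the opposite sign. Only annotated transcripts were searched for copies. The 43 bases that mt-Atp8 shares with mt-Atp6 lie inside the alignment of mt-Atp6 with Gm10925.

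**Figure D3:**
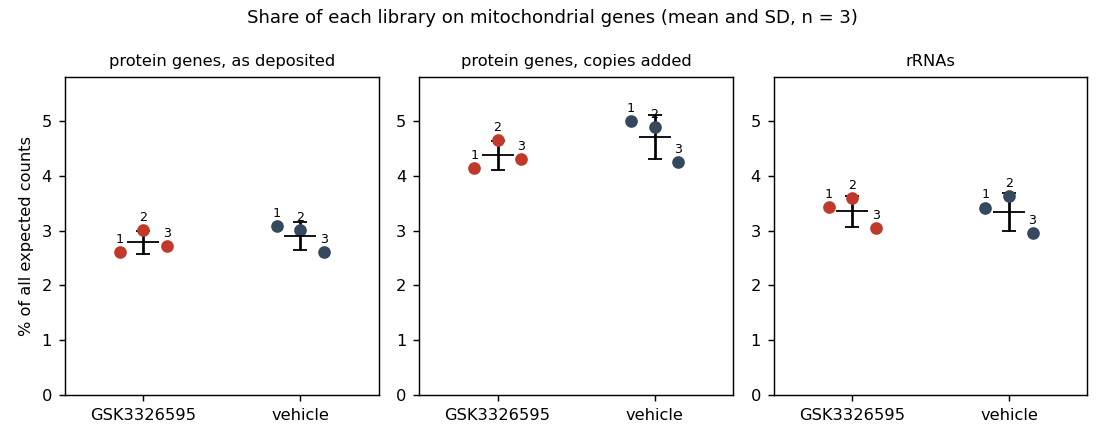
Percent of all expected counts (y axis) on the protein genes as deposited, on the protein genes with copies added, and on the 2 rRNAs, in GSK3326595 and vehicle libraries; points are libraries with their replicate numbers, and bars are the mean and SD (n = 3). The groups overlap in each panel, with means of 2.79% in GSK3326595 and 2.90% in vehicle, 4.37% in GSK3326595 and 4.72% in vehicle, and 3.35% in GSK3326595 and 3.33% in vehicle.

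Of the 37 genes, 16 passed the filter on low counts: the 13 protein genes, both rRNAs and the tRNA gene mt-Ts1. By edgeR's quasi-likelihood test with Benjamini-Hochberg adjustment over 17012 genes, 0 of the 16 were higher and 0 lower in GSK3326595 at an adjusted p under 0.05, as were 0.0% of all genes in either direction. At an unadjusted p under 0.05 there were also 0 higher and 0 lower, where 5.45% of all genes tested were higher and 3.81% lower (5.45% and 3.82% with copies added, and again 0 of the 16). DESeq2 called 0 of the 16, against 1.09% of all genes higher and 0.588% lower, and had 0 at an unadjusted p under 0.05, against 7.22% and 4.26%. Limma-voom called 0 of the 16, as it did 0.0% of all genes, and had 0 at an unadjusted p under 0.05, against 4.72% and 3.99%. The groups overlapped in CPM for all 16 with and without copies, while over all genes tested 6.72% lay apart with GSK3326595 higher and 7.68% with GSK3326595 lower.

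The 13 protein genes had a median log2 difference of -0.14, with 11 of 13 below 0, where the median of all genes tested was 0.03, with 46.9% below 0 and 53.1% above. With copies added the median was -0.16 and 10 of 13 were below 0. These counts depended on the scaling and on single libraries. Scaled by library totals alone, the median was -0.04 with 8 of 13 below 0, beside 0.12 for all genes. Without vehicle replicate 2 the median was -0.03 with 7 of 13 below 0, and without vehicle replicate 3 it was -0.25 with 11 of 13 below 0. With copies added, the 95% interval of each protein gene's log2 difference lay within -0.88, the lower bound of mt-Co3 (0.543-fold), and 0.64, the upper bound of mt-Cytb (1.56-fold). For the deposited rows the widest interval, of mt-Nd4l, ran from -1.49 to 1.35.

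**Figure D4:**
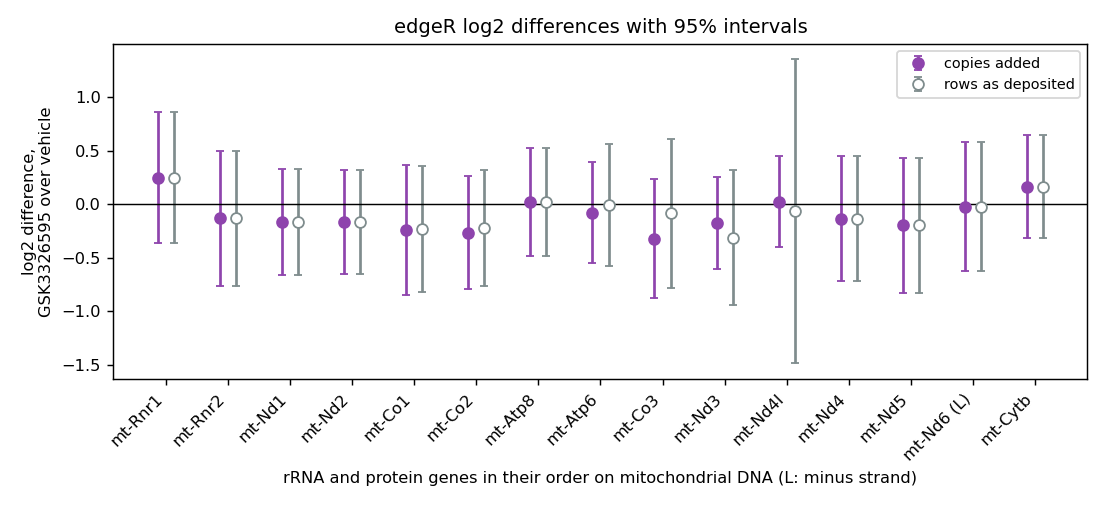
The edgeR log2 difference of GSK3326595 over vehicle (y axis) with its 95% interval for the 2 rRNAs and 13 protein genes in their order on mitochondrial DNA (x axis), with copies added (filled) and for the deposited rows (open); (L) marks a gene on the minus strand. Each interval includes 0, and that of the mt-Nd4l row narrows from -1.49 to 1.35 as deposited to -0.40 to 0.45 with the copy.

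Complex IV had the lowest differences among the complexes with its copies added. The catalytic subunit gene mt-Co1 (ENSMUSG00000064351.1, 5328 to 6872, plus strand) had, with its copy, 14653, 17404 and 13419 CPM in GSK3326595 against 19724, 19483 and 14665 CPM in vehicle. The highest GSK3326595 library lay above the lowest vehicle library, and the log2 difference was -0.24 ± 0.25 (SE; edgeR adjusted p = 0.82), against -0.23 ± 0.25 for the deposited row (edgeR adjusted p = 0.824). Subunit gene mt-Co2 (ENSMUSG00000064354.1, 7013 to 7696, plus strand) had, with its copy, 6375, 6456 and 6272 CPM in GSK3326595 and 8596, 8072 and 6312 CPM in vehicle. Only vehicle replicate 3 lay within the GSK3326595 range, and the log2 difference was -0.27 ± 0.22 (edgeR adjusted p = 0.752), against -0.22 ± 0.23 for the deposited row (edgeR adjusted p = 0.815). For mt-Co3 (ENSMUSG00000064358.1, 8607 to 9390, plus strand) the sums were 7091, 8151 and 6445 CPM in GSK3326595 and 9532, 10074 and 7556 CPM in vehicle. Here too only vehicle replicate 3 was inside the GSK3326595 range, and the log2 difference of -0.33 ± 0.23 had the smallest adjusted p of the protein genes with copies added (edgeR, 0.712). The deposited mt-Co3 row alone gave -0.09 ± 0.29 (edgeR adjusted p = 0.961).

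Complex III has a single mitochondrial subunit, cytochrome b, which binds heme and ubiquinol. Its gene mt-Cytb (ENSMUSG00000064370.1, 14145 to 15288, plus strand) had 3205, 4031 and 3468 CPM in GSK3326595 and 3458, 3146 and 2962 CPM in vehicle. The 2 highest libraries were GSK3326595, but replicate 1 of that group lay below vehicle replicate 1. The log2 difference of 0.16 ± 0.20 (edgeR adjusted p = 0.855) was the highest of the 13 and stayed above 0 without any 1 library, at 0.12 to 0.23.

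Complex I had 7 members, of which mt-Nd1 forms part of the quinone site, mt-Nd2, mt-Nd4 and mt-Nd5 encode the antiporter-like proton-pumping subunits, and mt-Nd3, mt-Nd4l and mt-Nd6 encode small membrane subunits. The gene mt-Nd1 had 2456, 2521 and 3002 CPM in GSK3326595 and 3396, 2846 and 2723 CPM in vehicle (log2 difference -0.17 ± 0.21; edgeR adjusted p = 0.853). The groups of mt-Nd2, mt-Nd4 and mt-Nd5 overlapped likewise, with log2 differences of -0.16 ± 0.20, -0.14 ± 0.24 and -0.20 ± 0.26, and adding its copy left mt-Nd4 at -0.14. For mt-Nd3 the deposited row gave the lowest difference of the 13, -0.32 ± 0.26 (edgeR adjusted p = 0.756), and adding Gm28438 gave -0.18 ± 0.18. For mt-Nd4l the row held 23.6, 23.5 and 15.8 CPM in GSK3326595 against 22.2, 37.9 and 5.99 CPM in vehicle, while gene and copy summed to 113, 153 and 132 CPM in GSK3326595 and 132, 141 and 118 CPM in vehicle. The wide span of the vehicle rows was not seen in the sums, and the log2 differences were -0.07 ± 0.60 for the row and 0.02 ± 0.18 for the sum. The values of mt-Nd6, the only protein gene on the minus strand, are given with the strands.

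The ATP synthase genes had log2 differences near 0. With its copy, mt-Atp6 (7927 to 8607, plus strand) had 2273, 2791 and 2610 CPM in GSK3326595 and 2934, 2760 and 2421 CPM in vehicle, a log2 difference of -0.08 ± 0.20 (edgeR adjusted p = 0.946), against -0.01 ± 0.24 for the deposited row (edgeR adjusted p = 0.998). The gene mt-Atp8 (7766 to 7969, plus strand) had 450, 664 and 675 CPM in GSK3326595 and 618, 578 and 568 CPM in vehicle, with GSK3326595 replicate 1 lowest and the other 2 GSK3326595 libraries highest. Its log2 difference was 0.02 ± 0.21 (edgeR adjusted p = 0.988).

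Within the mitochondrial mRNA pool, the share of each gene in the summed counts of the 13 protein genes and their copies does not depend on library scaling. Cytochrome b took 7.93%, 8.62% and 8.64% of that pool in GSK3326595 and 6.45%, 6.01% and 7.24% in vehicle, and these groups did not overlap. The means were 8.40% ± 0.403 in GSK3326595 and 6.57% ± 0.624 in vehicle, a log2 difference of 0.36 ± 0.09 (SE). In the other direction mt-Co3 took 17.5%, 17.4% and 16.1% in GSK3326595 and 17.8%, 19.3% and 18.5% in vehicle, without overlap (log2 difference -0.12 ± 0.05). These were the 2 of 13 genes whose groups lay apart, 1 in each direction (7.69% of the 13). Over all genes tested, 6.72% lay apart in CPM with GSK3326595 higher and 7.68% with GSK3326595 lower, which is near that share. Each had the smallest p that the exact permutation test allows, 0.1, and 0.65 after Benjamini-Hochberg adjustment over the 13 genes. On the deposited rows alone the share of mt-Cytb was 13.2% ± 0.554 in GSK3326595 and 10.7% ± 1.06 in vehicle, again without overlap (log2 difference 0.31 ± 0.09; exact permutation p = 0.1, n = 3 each). That of mt-Co3 was 6.43% ± 1.51 in GSK3326595 and 6.24% ± 0.317 in vehicle on those rows, with overlap and the opposite sign (0.02 ± 0.20; exact permutation p = 0.9), so its difference was seen only with the copies added. The gene whose deposited row shares lay apart with GSK3326595 lower was mt-Co1, at 50.5% ± 2.23 in GSK3326595 and 53.4% ± 0.401 in vehicle (exact permutation p = 0.1; 7.69% of the 13 in each direction here too). With copies added the share of mt-Co1, the largest in the pool, overlapped between groups, at 35.6% ± 1.97 in GSK3326595 and 36.6% ± 0.700 in vehicle.

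The rRNAs of the small and large mitochondrial ribosomal subunits, mt-Rnr1 and mt-Rnr2, are transcribed ahead of the mRNAs on the same strand. The large-subunit rRNA was the most abundant member per length, at 18554 CPM per kilobase. The small-subunit rRNA mt-Rnr1 (ENSMUSG00000064337.1, 70 to 1024, plus strand) had 3824, 5994 and 3992 CPM in GSK3326595 and 4304, 3929 and 3401 CPM in vehicle. GSK3326595 replicate 2 was the highest library and the others overlapped (log2 difference 0.25 ± 0.26; edgeR adjusted p = 0.822). The gene mt-Rnr2 (ENSMUSG00000064339.1, 1094 to 2675, plus strand) had 29596, 30074 and 24321 CPM in GSK3326595 and 32332, 34871 and 24919 CPM in vehicle, and replicate 3 was lowest in both groups (-0.13 ± 0.27; edgeR adjusted p = 0.929).

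Both rRNAs together took 3.43%, 3.59% and 3.04% of the counts in GSK3326595 and 3.42%, 3.62% and 2.95% in vehicle (log2 difference 0.01 ± 0.11; exact permutation p = 0.9, n = 3 each). Per 100 counts of mt-Rnr2 there were 16.4 ± 3.51 counts of mt-Rnr1 in GSK3326595 and 12.7 ± 1.29 in vehicle (SD), which overlapped (exact permutation p = 0.3, n = 3 each). The ratio of rRNA to protein gene counts was 1.31, 1.19 and 1.12 in GSK3326595 and 1.11, 1.205 and 1.13 in vehicle (log2 difference 0.07 ± 0.08; exact permutation p = 0.6). With copies added it was 0.827, 0.771 and 0.705 in GSK3326595 and 0.683, 0.742 and 0.693 in vehicle (exact permutation p = 0.2). The libraries were made from total RNA, and the sources used here do not say whether rRNA removal reached the mitochondrial rRNAs.

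The minus strand carries mt-Nd6 and 8 of the 22 tRNA genes, and the other 28 genes lie on the plus strand. The complex I gene mt-Nd6 (ENSMUSG00000064368.1, 13552 to 14070) had 158, 184 and 225 CPM in GSK3326595 and 227, 215 and 135 CPM in vehicle. The groups spanned nearly the same range (log2 difference -0.02 ± 0.25; edgeR adjusted p = 0.988). Per 100 counts of the other 12 protein genes there were 0.622, 0.610 and 0.896 counts of mt-Nd6 in GSK3326595 and 0.689, 0.671 and 0.543 in vehicle. The log2 difference was 0.15 ± 0.21 (exact permutation p = 0.6). It was -0.03 without GSK3326595 replicate 3, 0.04 without vehicle replicate 3, and 0.19 to 0.24 without each of the other libraries. The last 14 bases of mt-Nd6 and of mt-Nd5 lie opposite each other, and the sources used here do not give the strand setting of the counting.

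The tRNA genes were almost without counts. All 22 together had 184 expected counts over the 6 libraries, and 14 of the 22 were at 0 in every library, which allows up to 0.0892 to 0.116 CPM in a library (3 counts of its total). Of the 184 counts, 180 fell on the 8 minus-strand tRNA genes. The serine tRNA gene mt-Ts1, downstream of mt-Co1 and on the opposite strand, had 122 counts and the glutamate tRNA gene mt-Te, between mt-Nd6 and mt-Cytb, had 42. Both are printed as the only tRNAs above 10 counts, in the sense of the tRNA and with the anticodon in capitals, from chrM:6870-6938 and chrM:14071-14139 on the minus strand.
mt-Ts1: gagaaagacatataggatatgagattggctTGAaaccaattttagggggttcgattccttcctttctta
mt-Te: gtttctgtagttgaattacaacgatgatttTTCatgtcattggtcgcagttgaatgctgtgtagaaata

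Counts of mt-Ts1 were 12, 23 and 4 in GSK3326595 and 12, 39 and 32 in vehicle. The groups overlapped and the log2 difference was -1.08 ± 0.68 (edgeR adjusted p = 0.669). Counts of mt-Te were 1, 8 and 7 in GSK3326595 and 4, 6 and 16 in vehicle, and those of mt-Tq, the glutamine tRNA gene, were 0, 4 and 1 in GSK3326595 and 1, 3 and 1 in vehicle. Scaled like CPM but to the protein gene counts in place of the library, the tRNA counts were 25.8 ± 12.2 in GSK3326595 and 42.9 ± 23.1 in vehicle (SD; log2 difference -0.63 ± 0.70; exact permutation p = 0.4, n = 3 each). With so few counts a difference was not detectable at this depth, and reads of a tRNA and of RNA from the strand opposite it cannot be told apart without the strand setting.

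Respiratory complexes are built from both genomes, and mitochondrial were set against nuclear subunit counts within each complex. Of the nuclear subunits, 35 of 36 of complex I, 9 of 9 of complex III, 11 of 11 of complex IV and 15 of 15 of complex V had log2 differences below 0, with medians of -0.26, -0.31, -0.41 and -0.36, against 46.9% of all genes. None passed the adjusted threshold of edgeR, DESeq2 or limma-voom, and at an unadjusted p under 0.05 edgeR had 6, 0, 5 and 4 of them lower, against 3.81% of all genes. The groups lay apart with GSK3326595 lower for 11, 2, 7 and 10 of them, against 7.68% of all genes tested. With GSK3326595 higher they lay apart for 0 in each complex. Examples are Cox8a (complex IV), with 148 ± 20.2 CPM in GSK3326595 and 214 ± 28.9 CPM in vehicle, and Atp5o (complex V), with 201 ± 11.3 CPM in GSK3326595 and 311 ± 39.6 CPM in vehicle (SD, n = 3 each). Lower values of nuclear oxidative phosphorylation genes were already known from these libraries, so they are no independent support for a ratio that includes them.

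Counts of mt-Cytb per count of the 9 nuclear subunits of complex III were 2.65, 2.47 and 2.72 in GSK3326595 and 1.89, 1.81 and 1.92 in vehicle. The groups lay far apart relative to their spread, with means of 2.61 ± 0.126 in GSK3326595 and 1.87 ± 0.0602 in vehicle (SD, n = 3 each) and a log2 difference of 0.48 ± 0.05 (SE). For complex V the ratio, with the copy added, was 0.617, 0.655 and 0.724 in GSK3326595 and 0.544, 0.549 and 0.533 in vehicle (log2 difference 0.29 ± 0.07). For complex IV it was 19.0, 17.5 and 17.6 in GSK3326595 and 16.9, 17.1 and 15.5 in vehicle (0.13 ± 0.06). Neither overlapped, while for complex I the 2.82, 2.59 and 3.18 of GSK3326595 overlapped the 2.75, 2.75 and 2.35 of vehicle (0.13 ± 0.12). The exact permutation p was 0.1 for complexes III, IV and V, the smallest that 3 against 3 libraries allow, and 0.4 for complex I, with values of 0.133 and 0.4 after Benjamini-Hochberg adjustment over the 4 ratios. On the deposited rows the log2 differences were 0.12, 0.48, 0.18 and 0.37 for complexes I, III, IV and V, and the same 3 complexes lay apart. Of single genes tested, 6.72% lay apart with GSK3326595 higher and 7.68% with GSK3326595 lower. No such share was computed for ratios. A ratio shows unequal change and not which of its sides differed.

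**Figure D5:**
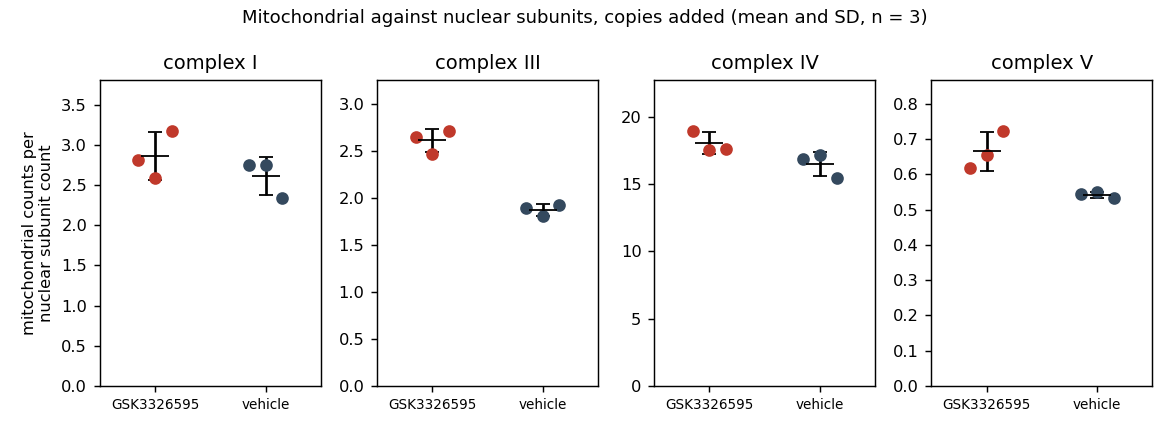
Counts of the mitochondrial subunits, with copies added, per count of the nuclear subunits of complexes I, III, IV and V (y axes, each from 0) in GSK3326595 and vehicle libraries; points are libraries and bars the mean and SD (n = 3). The groups do not overlap for complex III (mean 2.61 in GSK3326595, 1.87 in vehicle), complex IV (18.04 in GSK3326595, 16.5 in vehicle) and complex V (0.665 in GSK3326595, 0.542 in vehicle), and overlap for complex I (2.86 in GSK3326595, 2.62 in vehicle).

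The nuclear genes that maintain and express mitochondrial DNA were described from 9 lists with 176 genes, all of which passed the filter. By edgeR 0 were higher and 0 lower at an adjusted p under 0.05, and at an unadjusted p under 0.05 there were 0 higher and 2 lower, against 5.45% and 3.81% of all genes tested. Their median log2 difference was 0.06. The groups lay apart for 1 gene with GSK3326595 higher and for 7 with GSK3326595 lower, against 6.72% and 7.68% of all genes tested. Across these lists little set the groups apart, and the exceptions were single genes.

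Among the 12 genes of mtDNA replication, Polg, the catalytic subunit of the mitochondrial DNA polymerase, had 98.2, 82.4 and 85.5 CPM in GSK3326595 and 172, 174 and 138 CPM in vehicle. The groups did not overlap, and the log2 difference was -0.86 ± 0.17 (SE; edgeR adjusted p = 0.455). DESeq2 called it lower (adjusted p = 0.00852), a call lost without vehicle replicate 1 (0.346) or vehicle replicate 2 (0.177), while limma-voom did not call it (adjusted p = 0.532). Its accessory subunit Polg2 had 10.3 ± 2.42 CPM in GSK3326595 and 12.6 ± 0.742 CPM in vehicle (SD, n = 3 each).

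The 10 transcription genes held the only member of the lists that lay apart with GSK3326595 higher, Mterf1a, with 5.03 ± 0.525 CPM in GSK3326595 and 4.03 ± 0.354 CPM in vehicle (edgeR adjusted p = 0.726). Mterf2, of the same family of mitochondrial DNA-binding proteins, lay apart in the other direction, with 5.39 ± 1.15 CPM in GSK3326595 and 7.23 ± 0.103 CPM in vehicle. Among 20 genes of RNA processing, Fastk, the founding member of a family of mitochondrial RNA-binding proteins, had 46.6, 47.9 and 46.9 CPM in GSK3326595 and 67.1, 71.7 and 51.4 CPM in vehicle (log2 difference -0.43 ± 0.17; edgeR unadjusted p = 0.0459, adjusted p = 0.533). Among 5 genes of RNA stability and decay, Lrpprc, which stabilizes the mitochondrial mRNAs, had 255, 318 and 320 CPM in GSK3326595 and 405, 373 and 350 CPM in vehicle. Its groups did not overlap, and the log2 difference was -0.34 ± 0.17 (edgeR adjusted p = 0.598).

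For the mitochondrial ribosome, the 77 ribosomal protein genes had a median log2 difference of 0.05. Of these, 49 were above 0 and 28 below, against 53.1% and 46.9% of all genes tested. The groups lay apart for 0 of the 77 with GSK3326595 higher and for 3 with GSK3326595 lower, against 6.72% and 7.68% of all genes tested. Among the 3 was Mrpl24, at 54.7 ± 3.75 CPM in GSK3326595 and 68.8 ± 0.534 CPM in vehicle (SD, edgeR adjusted p = 0.541). The 14 genes of rRNA modification and ribosome assembly had a median of 0.04 and the 12 translation factors 0.07, and in neither list did any gene's groups lie apart. Of the 17 mitochondrial tRNA synthetases, 13 were above 0, against 53.1% of all genes tested. Their median was 0.18, and there was no gene whose groups lay apart.

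The synthetase with the smallest p, Lars2, which charges the leucine tRNAs, had 5150, 11274 and 16070 CPM in GSK3326595 and 4027, 1406 and 7511 CPM in vehicle (log2 difference 1.33 ± 0.67; edgeR adjusted p = 0.588). Tars2, the threonine enzyme, had 79.9 ± 11.1 CPM in GSK3326595 and 68.9 ± 9.22 CPM in vehicle (SD, n = 3 each), far below Lars2. The Lars2 row moved library by library with Rn18s-rs5, a row of cytosolic ribosomal RNA sequence, which had 5398, 11955 and 18339 CPM in GSK3326595 and 4463, 1559 and 8442 CPM in vehicle. The part of ribosomal RNA reads in the Lars2 values was not tested.

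Among 9 regulators of mitochondrial biogenesis the groups overlapped in every gene, and the smallest p belonged to Ppargc1b, a coactivator of oxidative metabolism genes, with 12.9 ± 8.92 CPM in GSK3326595 and 27.3 ± 17.0 CPM in vehicle (edgeR adjusted p = 0.668). The nuclear receptor gene Esrra followed with 19.7 ± 8.47 CPM in GSK3326595 and 28.1 ± 5.69 CPM in vehicle. The 8 genes used as markers of mitochondrial mass had a median log2 difference of -0.10. Of these, 6 of 8 were below 0, against 46.9% of all genes tested, and none had groups that lay apart. Among the 8, Cs for citrate synthase had 176 ± 52.5 CPM in GSK3326595 and 144 ± 47.3 CPM in vehicle.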

How the data were processed

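Per the labels' protocols, a stranded kit for total RNA was used on RNA of the liver tumors. The authors deposited expected counts per gene, which are not scaled to library size. The tools cutadapt, STAR, Picard and RSEM and the build mm10 are named, per the submitters' processing notes; the sources used here give neither the annotation release nor the strand setting. Among the deposited expected counts, 12.3% were not whole. Gene IDs were matched without version to GENCODE M21 (47224 of 47643).

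Expected counts were rounded, kept with filterByExpr (minimum count 10, 17012 genes), TMM-scaled and fitted in R 4.3.3 with edgeR 4.0.16, whose two-sided quasi-likelihood test was adjusted by Benjamini-Hochberg at 0.05. SEs were taken as the size of the log2 difference over the square root of F. Limma-voom (limma 3.58.1) and DESeq2 1.42.0 served as alternatives, and the fits were tested on simulated data. Shares and ratios used the unrounded counts, a log2 value per library and an exact permutation test over the 6 libraries. Copies were annotated transcripts of other chromosomes with at least 90% identity over at least 100 bases (blastn 2.17.0), and only those of the chromosome 1 block were added; this was chosen after seeing the data. Fold changes are GSK3326595 over vehicle.

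All mt- genes could be named, and from each nuclear list at most 4 genes of smallest p; Polg2, Mterf1a and Tars2 fall under this rule. Rn18s-rs5 was named after its values were seen. Members and lists were chosen with earlier results of these data known. Alternatives were other scaling, filters, tools and denominators, the replicate number as a block, and fits without each library.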

Additional observations from a re-analysis of the deposited data

How the results depend on the processing

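No mitochondrial gene passed the adjusted or the unadjusted threshold under any alternative run: of 239 values of 16 genes, 0 passed the adjusted threshold, 209 kept the sign of the reported value, and 11 of the 16 genes had 1 sign throughout. The cause of the changes that follow was not tested, except that leaving out a library leaves fewer samples. The log2 difference of the mitochondrial share ranged from -0.10 to 0.028 without each library in turn and that of the rRNA share from -0.074 to 0.080; the rRNA share was -0.079 with the TMM effective library size. The protein gene share was 0.060 over the 6 genes with no annotated copy on chromosome 1. The tRNA to protein gene ratio was 0.033 from mean log2 CPM, and mt-Nd6 relative to the other 12 ranged from -0.034 to 0.24 without each library. The mt-Co3 share of the mRNA pool was 0.018 on the deposited rows, against -0.12 with copies added, and -0.15 to -0.081 without each library; that of mt-Cytb was 0.31 on the deposited rows and 0.30 to 0.43 without each library. The complex III, IV and V ratios kept their sign under every alternative.

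Signs also changed in 5 genes, here for the deposited rows unless a copy is named. For mt-Atp8 the log2 difference was -0.0023 with limma-voom, -0.0015 with the replicate block and -0.060 to 0.19 without each library. For mt-Atp6, reported at -0.0053, it was 0.0060 with DESeq2's size factors and with DESeq2, 0.097 with library totals, 0.020 with no filter, 0.040 with at least 1 CPM in 3 libraries, 0.033 with limma-voom, 0.034 with the replicate block, and -0.15 to 0.23 without each library; with its copy it was -0.12 to -0.0030 without each library, with no change of sign. For mt-Co3 it was -0.35 to 0.11 without each library, and -0.40 to -0.23 with its copy, again with no change of sign. For mt-Nd4l it was 0.053 with library totals, 0.30 with limma-voom, 0.25 with the replicate block, 0.021 with its copy and -0.49 to 0.57 without each library (-0.04 to 0.13 with its copy). For mt-Nd6 it was 0.087 with library totals, 0.0084 with no filter, 0.027 with at least 1 CPM in 3 libraries and -0.18 to 0.11 without each library.

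Of the 176 nuclear genes DESeq2 called 0 higher and 1 lower, against 1.09% and 0.588% of all genes tested. At an unadjusted p under 0.05, DESeq2 had 1 higher and 1 lower, against 7.22% and 4.26%. By limma-voom 1 was lower, against 3.99% of all genes. With edgeR 1 was lower under DESeq2's size factors, library totals, no filter, at least 1 CPM and the replicate block. Without each library 0 to 10 were higher, the 10 without GSK3326595 replicate 1, and 1 to 4 lower. For these edgeR alternatives the share of all genes is not given here. Deviations of same-numbered replicates correlated with r of -0.07, 0.07 and 0.32. Pairs of unlike number reached 0.32 (GSK3326595 replicate 1, vehicle replicate 2) and -0.43 (GSK3326595 replicate 3, vehicle replicate 2). These values cannot settle whether equal numbers share more than the number. The rRNA share had an SE of 0.017 with the replicate block and 0.11 without it. The replicate block gave 0 mitochondrial genes called and changed no other call. The tRNAs had too few counts to compare at this depth. For the 7 genes with a copy the origin of a read cannot be told apart, and in bulk RNA neither can cell numbers and RNA per cell.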
